A study of Homo sapiens with 6 samples.

Results

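The transcripts of 10 genes of the YAP/TAZ and TEAD module were examined in human bronchial epithelial cells (HBECs) exposed to cockroach extract (CRE), without or with VAF347, an agonist of the aryl hydrocarbon receptor (AhR). They are the coactivator genes *YAP1* and *WWTR1* (which encodes TAZ), the transcription factor genes *TEAD1*, *TEAD2*, *TEAD3* and *TEAD4*, and the widely used target genes *CCN1*, *CCN2*, *ANKRD1* and *AMOTL2*. The members were taken by gene symbol, 10 of the 61228 symbols in the count table, and all 10 were among the 15373 genes that passed the filter on low counts. HBECs are an immortalized line, labelled WT for genotype, so every library stands for a single line and not for donors. The CRE group holds 3 libraries of cells given CRE for 24 h. The CRE+VAF347 group holds 3 libraries of cells given CRE for 24 h with VAF347, which the study's methods put at 20 μM and before the CRE. Both groups carried CRE, and cells without CRE or with VAF347 alone were not analysed here, so the comparison gives the difference that VAF347 made in the presence of CRE. The labels do not say whether replicates were separate cultures, and p-values then measure only the spread between these libraries, which may be technical.

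YAP and TAZ are coactivators without a DNA-binding domain of their own. When the kinases MST1/2 and LATS1/2 of the Hippo pathway are active, YAP and TAZ are phosphorylated, held in the cytoplasm and degraded, and when the pathway is quiet they enter the nucleus, bind TEAD factors and switch on genes for matrix, growth and the cytoskeleton. Much of this control acts on the proteins, which RNA-seq does not measure, and target transcripts are commonly read as a sign of YAP/TAZ activity. In airway epithelium YAP and TAZ are known for their part in basal cell maintenance and repair after injury.

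The libraries held 8873160 to 10750283 estimated counts. Levels are given as counts scaled to a common library size after TMM normalization (CPM) for comparisons between libraries, and as the deposited TPM, which takes transcript length into account, for comparisons between genes. A single count was worth 0.0935 to 0.112 CPM. All 4 AhR target genes used as a check of the labels were higher with VAF347, with log2 fold changes of 2.16 for *AHRR* to 6.20 for *CYP1A1*. CRE replicate 3 stood apart from the other libraries: its median log2 ratio of TPM to CPM was -0.450, against -0.656 to -0.601 in the other libraries, and values without it are given for *TEAD2*, *AMOTL2* and the order of levels. The summed TPM of the 8 airway epithelial markers was 3310 to 4106 in CRE and 3332 to 3435 in CRE+VAF347. Of the basal cell markers among them, *TP63* and *KRT14* were under 1 CPM in every library, and *KRT5* measured 17.5, 15.7 and 14.6 CPM in CRE and 12.1, 12.6 and 12.2 CPM in CRE+VAF347 (log2 fold change -0.37, adjusted p = 0.0773, edgeR).

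TEAD factors recognise the sequence GGAATG, and *CCN2* and *ANKRD1* are textbook direct targets. The 250 bases before the annotated start were read from RefSeq on GRCh38 for 7 of the 10 members, which have 10 starts in that table, and *CCN1*, *TEAD1* and *TEAD4* have no entry. The sequences of *CCN2*, *AMOTL2* and *ANKRD1* are shown because these are the target genes with an entry, the first and the second of which changed with VAF347. Each runs 5′ to 3′ on the minus strand, which is the gene's strand, and capitals mark GGAATG on either strand (on the opposite strand it reads CATTCC).
CCN2, chr6:131951373-131951622: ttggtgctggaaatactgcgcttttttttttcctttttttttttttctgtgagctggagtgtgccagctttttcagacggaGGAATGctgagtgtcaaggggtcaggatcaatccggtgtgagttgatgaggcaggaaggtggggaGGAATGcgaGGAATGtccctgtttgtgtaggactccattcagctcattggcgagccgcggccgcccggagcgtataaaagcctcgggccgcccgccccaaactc
AMOTL2, chr3:134374448-134374697: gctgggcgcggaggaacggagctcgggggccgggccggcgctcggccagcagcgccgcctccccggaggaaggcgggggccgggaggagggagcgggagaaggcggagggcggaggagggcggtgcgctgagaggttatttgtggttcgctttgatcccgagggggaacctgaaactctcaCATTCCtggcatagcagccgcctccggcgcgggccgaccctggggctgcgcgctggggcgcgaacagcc
ANKRD1, chr10:90921088-90921337: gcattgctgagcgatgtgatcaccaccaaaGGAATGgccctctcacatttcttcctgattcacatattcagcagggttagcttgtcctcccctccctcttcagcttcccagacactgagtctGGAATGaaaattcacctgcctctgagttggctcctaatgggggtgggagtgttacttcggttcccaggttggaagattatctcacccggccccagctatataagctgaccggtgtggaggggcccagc
The *CCN2* promoter held GGAATG 3 times, with first bases at -169, -104 and -95 from the start, and the copies at -104 and -95 lay 3 bases apart. *ANKRD1* held it 2 times, at -220 and -128. *AMOTL2* held it 1 time, at -69 of the start at 134374447, and 0 times before its other start at 134375417. *YAP1* held it 1 time, at -162, and the windows of *WWTR1*, *TEAD2* and *TEAD3* held none. Among 35116 promoter windows of this length, 11.9% held at least 1 copy, 0.940% at least 2 and 0.0826% at least 3. The core of the AhR response element, GCGTG, was present before 1 of the 10 starts, that of *WWTR1* at 149658025 (first base at -172), and in 32.2% of all windows. These are matches of letters and not measured binding sites.

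Of the 10 genes, *CCN2* and *AMOTL2* fell with VAF347, 0 rose, and the transcripts of both coactivators and all 4 TEAD factors did not pass the test. A call needed a p under 0.05 after Benjamini-Hochberg adjustment over all genes, in the quasi-likelihood test of edgeR, and a log2 fold change beyond 0.5 in either direction. Under this rule 2.21% of all genes tested were called, 1.71% lower and 0.501% higher with VAF347. At any fold change, 5.42% of all genes had an adjusted p under 0.05, and the genes lower with VAF347 made up 4.07% of all genes. The median log2 fold change was -0.08 over the 10 genes and 0.01 over all genes. The groups did not overlap for 5 of the 10 genes, with 4 lower and 1 higher with VAF347, against 27.3% of all genes, with 14.8% of all genes lower. The members were picked for their role, with earlier results of these data known, and are few, so these counts describe them and no more.

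**Figure D1:**
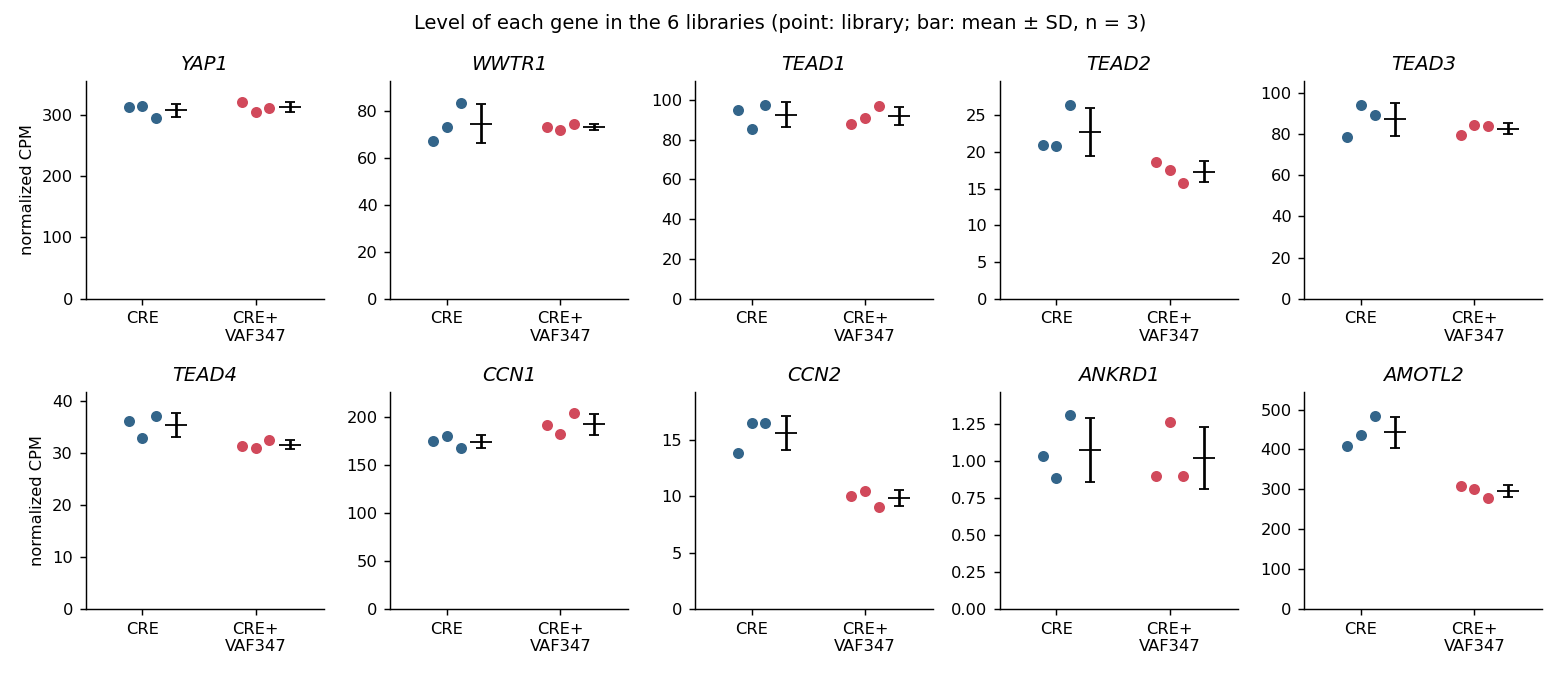
Normalized CPM of the 10 genes on linear axes that start at 0. Each point is a library and the bar beside it is the mean ± SD of the 3 libraries of a group. The points of *CCN2* and *AMOTL2* are all lower in CRE+VAF347, and those of *YAP1*, *WWTR1*, *TEAD1*, *TEAD3* and *ANKRD1* overlap between groups.

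*YAP1* (chromosome 11, 102110447 to 102233424, plus strand, GENCODE v44 on GRCh38) measured 313, 314 and 294 CPM in CRE replicates 1 to 3 and 321, 305 and 311 CPM in CRE+VAF347 replicates 1 to 3. The groups overlapped, and their means were 307 ± 11.2 and 313 ± 8.22 CPM (SD, n = 3 each). The log2 fold change was 0.02 (SE 0.0584, adjusted p = 0.848), and its 95% interval ran from -0.09 to 0.14. *WWTR1* (chromosome 3, 149517235 to 149736714, minus strand) measured 67.1, 73.0 and 83.5 CPM in CRE and 73.1, 72.0 and 74.6 CPM in CRE+VAF347. The VAF347 values lay within the range of the CRE values. Its log2 fold change was -0.03 (SE 0.0802, adjusted p = 0.890), with a 95% interval from -0.18 to 0.13. The intervals of both coactivators lay within the fold threshold of 0.5 in either direction. At an unadjusted p under 0.05, 0 of the 2 coactivators passed in edgeR, in DESeq2's Wald test or in limma on TPM.

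The TEAD factors bind DNA and recruit YAP or TAZ. *TEAD1* (chromosome 11, 12674421 to 12944737, plus strand) measured 94.7, 85.6 and 97.5 CPM in CRE and 88.0, 90.9 and 96.8 CPM in CRE+VAF347, which overlap, and its log2 fold change was -0.01 (SE 0.0692, adjusted p = 0.953). *TEAD3* (chromosome 6, 35473597 to 35497079, minus strand) measured 78.4, 94.1 and 89.4 CPM in CRE and 79.5, 84.3 and 83.8 CPM in CRE+VAF347, and its log2 fold change was -0.08 (SE 0.0745, adjusted p = 0.579). For both genes the CRE libraries held the lowest and the highest value.

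*TEAD2* (chromosome 19, 49340595 to 49362457, minus strand) measured 20.9, 20.8 and 26.5 CPM in CRE and 18.7, 17.6 and 15.8 CPM in CRE+VAF347. All 3 VAF347 libraries were lower, and CRE replicate 3 was the highest of the 6. The log2 fold change of *TEAD2* was -0.40 (SE 0.118, 95% interval -0.63 to -0.16, adjusted p = 0.0806), and -0.27 without CRE replicate 3 (adjusted p = 0.130). *TEAD4* (chromosome 12, 2959330 to 3040676, plus strand) measured 36.1, 32.9 and 37.2 CPM in CRE and 31.5, 30.9 and 32.5 CPM in CRE+VAF347. All VAF347 values were lower here as well, the highest of them close to the lowest CRE value. *TEAD4* had a log2 fold change of -0.16 (SE 0.0778, adjusted p = 0.264). Of the 4 TEAD genes, 0 were called, against 2.21% of all genes. At an unadjusted p under 0.05, 1 (*TEAD2*) passed in edgeR and in DESeq2, and 0 in limma on TPM. The share of all genes at an unadjusted p under 0.05 was not counted, so such counts have no background.

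*CCN2* (chromosome 6, 131948176 to 131951372, minus strand) encodes connective tissue growth factor, a secreted matricellular protein. Its promoter holds the 3 copies of GGAATG printed earlier. It measured 13.9, 16.5 and 16.4 CPM in CRE, from 134, 168 and 176 counts, and 9.9998, 10.5 and 9.08 CPM in CRE+VAF347, from 89, 100 and 91 counts. The groups did not overlap, and the mean fell from 15.6 ± 1.497 to 9.86 ± 0.727 CPM (SD, n = 3 each), a change of -36.9% in the fit. In log2 units the fold change was -0.66 (SE 0.119, 95% interval -0.90 to -0.43, adjusted p = 0.00857, edgeR).

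*AMOTL2* (chromosome 3, 134355347 to 134375479, minus strand) encodes angiomotin-like 2, a junction protein that binds YAP and is also induced by it. It measured 408, 437 and 485 CPM in CRE and 310, 301 and 279 CPM in CRE+VAF347. The lowest CRE library was well over the highest VAF347 library, and the mean fell from 443 ± 38.9 to 297 ± 15.7 CPM (SD, n = 3 each), a change of -33.1% in the fit. This is a log2 fold change of -0.58 (SE 0.0744, 95% interval -0.73 to -0.43, adjusted p = 0.00125, edgeR). Without CRE replicate 3, which held the highest value, it was -0.51 and still called. In these bulk libraries, fewer cells that express a gene and less RNA per cell cannot be told apart.

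*CCN1* (chromosome 1, 85580761 to 85584589, plus strand) encodes CYR61, the closest relative of CCN2 among the members and likewise a secreted matricellular protein. It measured 175, 181 and 167 CPM in CRE and 191, 182 and 204 CPM in CRE+VAF347. All VAF347 libraries were higher, although the lowest of them was close to the highest CRE library. The log2 fold change was 0.14 (SE 0.0634, 95% interval 0.02 to 0.27, adjusted p = 0.229), which did not pass the test and lay opposite in sign to *CCN2* and *AMOTL2*. *ANKRD1* (chromosome 10, 90912096 to 90921087, minus strand), a nuclear ankyrin repeat protein known from stretched muscle, was near the detection limit, with 10, 9 and 14 counts in CRE and 8, 12 and 9 counts in CRE+VAF347. The groups overlapped, and its log2 fold change of -0.08 (SE 0.334, adjusted p = 0.927) had a 95% interval from -0.73 to 0.57, so a change of the size seen in *CCN2* was not detectable at this depth.

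**Figure D2:**
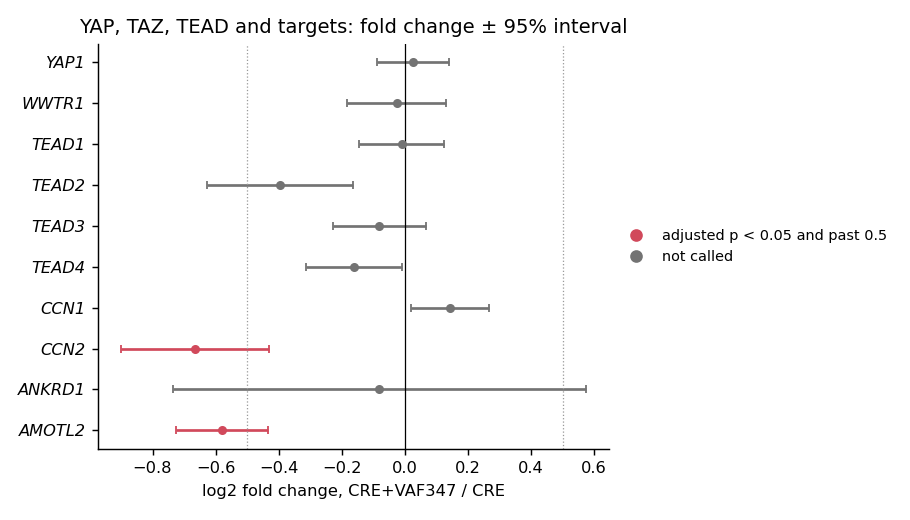
Log2 fold change (CRE+VAF347 over CRE) of the 10 genes from edgeR's quasi-likelihood fit, with the 95% interval as a bar and dotted lines at the fold threshold. *CCN2* at -0.66 and *AMOTL2* at -0.58 are the genes called, the coactivators lie near 0, and *ANKRD1* has the widest interval.

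Whether *CCN1* and *CCN2* moved alike was tested on their log2 ratio of CPM within each library. The ratio was 3.66, 3.45 and 3.35 in CRE and 4.26, 4.11 and 4.49 in CRE+VAF347. It was higher in all 3 VAF347 libraries, by 0.80 on average, with an exact two-sided permutation p of 0.1, the smallest that 3 against 3 libraries allow. The log2 ratio of *CCN1* to *AMOTL2* in TPM, chosen after the values were seen and so given with no test, was -0.38, -0.47 and -0.62 in CRE and 0.19, 0.18 and 0.35 in CRE+VAF347. *CCN1* was thus the lower of the pair in each CRE library and the higher in each VAF347 library.

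Per transcript length, the order of the 10 genes began with the targets *AMOTL2* and *CCN1* and the coactivator *YAP1*, and ended with *ANKRD1*. In CRE the level of *AMOTL2* was 186 ± 26.5 TPM (SD, n = 3), that of *CCN1* 132 ± 7.39 TPM and that of *YAP1* 120 ± 17.3 TPM, and the ranges of *CCN1* and *YAP1* overlapped. *TEAD3* at 38.2 ± 5.38, *WWTR1* at 33.5 ± 8.77, *TEAD4* at 28.4 ± 4.12 and *TEAD1* at 26.6 ± 5.03 TPM followed, each overlapping its neighbour. *TEAD2* at 15.1 ± 4.10 and *CCN2* at 11.03 ± 1.78 TPM also overlapped, and *ANKRD1* was lowest at 1.15 ± 0.312 TPM. Most of these overlaps rested on CRE replicate 3. In CRE replicates 1 and 2, *CCN1* at 127 to 129 TPM was over *YAP1* at 109 to 111 TPM, and *TEAD3* at 32.4 to 39.4 TPM was over *WWTR1* at 27.4 to 29.7 TPM. *TEAD4* at 24.7 to 27.7 TPM was likewise over *TEAD1* at 23.4 to 23.9 TPM, and *TEAD2* at 12.5 to 12.9 TPM over *CCN2* at 9.20 to 11.1 TPM, while *WWTR1* and *TEAD4* still overlapped.

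In CRE+VAF347 the order of the first pair was turned, with *CCN1* at 147 ± 9.45 TPM over *AMOTL2* at 124 ± 1.36 TPM in all 3 libraries. *YAP1* was at 111 ± 2.85 TPM, *TEAD3* at 35.9 ± 1.48, *WWTR1* at 31.7 ± 2.13, *TEAD4* at 24.7 ± 0.912, *TEAD1* at 24.5 ± 2.10, *TEAD2* at 10.99 ± 1.06, *CCN2* at 6.85 ± 0.422 and *ANKRD1* at 1.04 ± 0.212 TPM. Of these neighbours only *TEAD4* and *TEAD1* overlapped. By their means the other 8 genes kept their places, but *TEAD4* was over *TEAD1* in 3 of 3 CRE libraries and in 1 of 3 CRE+VAF347 libraries.

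**Figure D3:**
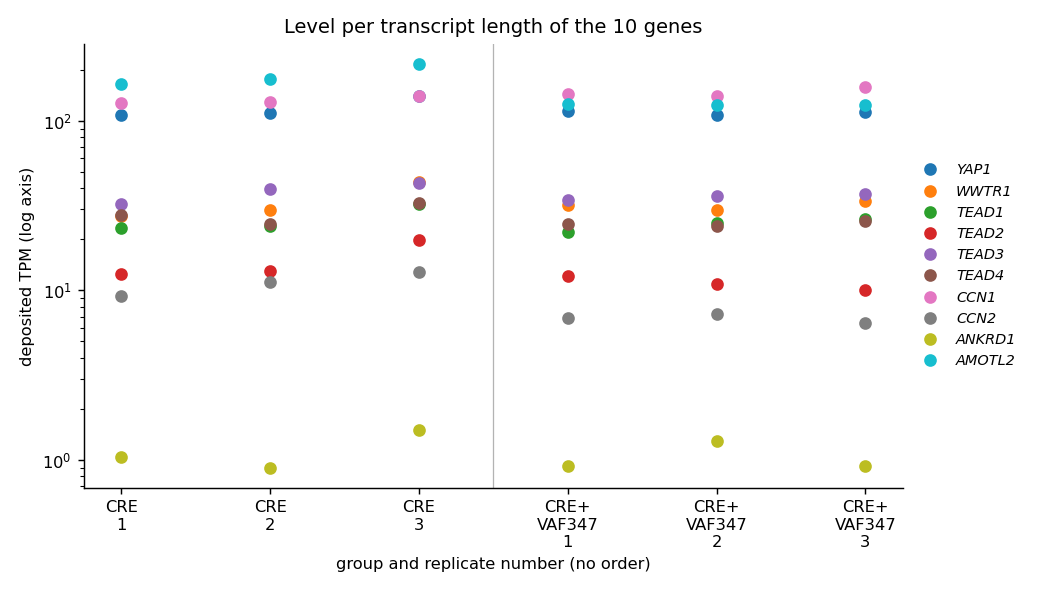
Deposited TPM of the 10 genes in each library on a log axis, one colour per gene. *AMOTL2* is the highest point in the 3 CRE libraries and *CCN1* in the 3 CRE+VAF347 libraries, while *ANKRD1* lies near 1 TPM throughout.

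The balance between paralogs was compared as a share of TPM. *WWTR1* made up 21.7 ± 1.90% of the summed TPM of *YAP1* and *WWTR1* in CRE and 22.2 ± 0.911% in CRE+VAF347 (SD, n = 3 each), and the values overlapped (exact two-sided permutation test, p = 0.7). Among the 4 TEAD genes, *TEAD3* held the largest share on average, 35.5 ± 3.10% in CRE and 37.3 ± 0.501% in CRE+VAF347. *TEAD2* held the smallest, 13.8 ± 1.48% in CRE and 11.5 ± 1.46% in CRE+VAF347. The difference in the *TEAD2* share was -2.31 percentage points, and the groups overlapped (exact permutation p = 0.2). *TEAD1* held 24.5 ± 0.795% and 25.5 ± 1.46%, and *TEAD4* 26.3 ± 2.27% and 25.7 ± 0.812%. The exact permutation p-values of the 4 shares were between 0.2 and 0.9. With 3 against 3 libraries they cannot go below 0.1, so the test could not have called a change in any of these shares.

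The genes that feed into YAP and TAZ were followed in a list of 48 Hippo pathway genes, of which 46 were tested. Only *AMOT* was called lower and 0 were called higher, a share of 2.17% against 2.21% of all genes. At any fold change, 6 were lower and 1 higher at an adjusted p under 0.05, a share of 15.2% against 5.42% of all genes, and the median log2 fold change was -0.06. *AMOT*, angiomotin, a relative of *AMOTL2* that holds YAP at junctions and in the cytoplasm, measured 57.3, 59.6 and 57.0 CPM in CRE and 39.7, 42.9 and 37.8 CPM in CRE+VAF347. The groups were well apart, with a log2 fold change of -0.53 (SE 0.0712, adjusted p = 0.00171, edgeR), which without CRE+VAF347 replicate 3 was -0.49 and under the fold threshold. The third angiomotin gene, *AMOTL1*, measured 209 ± 6.12 CPM in CRE and 177 ± 4.63 CPM in CRE+VAF347 (SD, n = 3 each). Its log2 fold change was -0.24 (SE 0.0571, adjusted p = 0.0349, edgeR), under the fold threshold. All 3 angiomotin genes had lower values in every VAF347 library, as did 14.8% of all genes. This grouping was chosen after the values were seen.

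The kinase core and its adaptors, which include *STK3* and *STK4* (MST2 and MST1), *LATS1*, *LATS2*, *SAV1*, *MOB1A*, *MOB1B* and *NF2*, showed no call. Of the 17 genes of this kind tested in edgeR, 0 were called, against 2.21% of all genes, so 0 in a list this short says little. DESeq2 and limma on TPM also called 0. At an unadjusted p under 0.05 there were 4, 3 and 0 in edgeR, DESeq2 and limma. The share of all genes at that threshold was not counted. Their median log2 fold change was 0.04, and the values farthest from 0 were 0.25 for *MOB1B* (adjusted p = 0.0583) and -0.23 for *MAP4K2* (adjusted p = 0.152). *LATS2*, itself a YAP target, measured 67.3, 72.2 and 88.0 CPM in CRE and 62.8, 64.7 and 69.9 CPM in CRE+VAF347, which overlap (log2 fold change -0.21, adjusted p = 0.249). Among 26 tested upstream and junction genes the log2 fold change was negative in 19, against 7359 of all 15373 genes. At an adjusted p under 0.05, 5 were lower and 1 higher, a share of 23.1% against 5.42% of all genes. Beside *AMOT* and *AMOTL1*, the lower ones were *WWC1* (-0.25, adjusted p = 0.0351) and *WWC3* (-0.27, adjusted p = 0.0404), of the KIBRA family that promotes LATS activity, and the polarity gene *LLGL1* (-0.32, adjusted p = 0.0356), all under the fold threshold. The higher one was *AJUBA*, a LIM protein that inhibits LATS (log2 fold change 0.26, SE 0.0552, adjusted p = 0.0205), also under the fold threshold.

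Among the TEAD cofactors of the VGLL family, which compete with YAP and TAZ for TEAD, 3 were tested. Of these 0 were called by edgeR, against 2.21% of all genes, or by DESeq2 or limma on TPM. In each of these 3 tests, 1 gene was at an unadjusted p under 0.05, again without the share of all genes. *VGLL1* measured 21.1, 22.3 and 23.1 CPM in CRE and 17.5, 16.0 and 13.9 CPM in CRE+VAF347. All VAF347 values were lower, and the log2 fold change of -0.49 (SE 0.105, adjusted p = 0.0216) stopped just short of the fold threshold. It passed it without CRE replicate 1 (-0.53) and without CRE+VAF347 replicate 1 (-0.58), and was called in 3 of 13 settings on counts. Over those settings its log2 fold change ran from -0.58 to -0.31, with an adjusted p from 0.000845 to 0.357. In DESeq2's Wald test the adjusted p was 0.0656, and its TPM overlapped between the groups.

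Other genes that YAP/TAZ, TEAD or the related actin-sensing factors SRF and MRTF are known to switch on were followed together with the other CCN family genes, which are listed as relatives of *CCN1* and *CCN2*, in a list of 50 genes beside the members, of which 42 were tested. Of these 9 fell and 2 rose, 26.2% against 2.21% of all genes, and 31 did not pass. At any fold change, 14 were lower and 4 higher at an adjusted p under 0.05, a share of 42.9% against 5.42% of all genes. The higher ones included *GADD45A* (log2 fold change 0.49, adjusted p = 0.0268, edgeR) and *CCND1* (0.32, adjusted p = 0.0164), both under the fold threshold. Over the 42 genes the log2 fold change was negative in 36 and positive in 6, with a median of -0.23. It was negative in 7359 of all 15373 genes tested. The list was drawn up with results of these libraries known, those of *IGFBP3*, *TGFB2*, *MYC*, *INHBA*, *AREG*, *GADD45A* and *CCND1* among them. *MYC*, *TGFB2* and *IGFBP3* had also been singled out in the study of the same libraries. The count is therefore not independent evidence of a direction. Many of these genes are also targets of TGF-beta or MAP kinase signalling.

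*THBS1*, thrombospondin-1, fell from a mean of 1345 ± 175 to 827 ± 63.0 CPM (SD, n = 3 each), a log2 fold change of -0.70 (SE 0.092, adjusted p = 0.00144, edgeR). *INHBA*, the activin A subunit, had the strongest decrease of the list, from 30.0 ± 0.613 to 11.8 ± 3.07 CPM (log2 fold change -1.35, SE 0.149). The growth factor *TGFB2* (-0.87), the IGF carrier *IGFBP3* (-0.91), the transcription factor *MYC* (-0.94) and the matrix protein *CCDC80* (-0.72) fell as well. The 2 genes that rose were *AREG*, amphiregulin, an EGFR ligand, from 13.2 ± 1.19 to 22.4 ± 3.20 CPM (log2 fold change 0.76, SE 0.123, adjusted p = 0.00531, edgeR), and *NT5E*, the ectonucleotidase CD73, from 37.6 ± 4.56 to 54.3 ± 1.97 CPM (0.53, adjusted p = 0.00629). *NT5E* was called in 9 of 13 settings on counts. The call was lost without CRE replicate 2 (0.43), without CRE+VAF347 replicate 1, when its fold change sat at the threshold, with the GC offset (0.49) and with transcript length offsets (0.44, adjusted p = 0.0575). The call of *CCDC80* was also lost with length offsets (-0.62, adjusted p = 0.121), under which 8 of the listed targets were called in place of 11.

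The 12 tested SRF and MRTF genes, which respond to actin assembly, all had a negative log2 fold change, with a median of -0.35. Among all 15373 genes tested, 7359 were negative. In the SRF and MRTF list 3 genes were called lower, against 1.71% of all genes. *MYL9*, a myosin regulatory light chain, measured 59.6, 64.7 and 60.6 CPM in CRE and 36.5, 35.5 and 38.3 CPM in CRE+VAF347 (log2 fold change -0.74, SE 0.0696, adjusted p = 0.000179, edgeR). *CALD1*, caldesmon, fell from 36.3 ± 3.44 to 21.9 ± 1.78 CPM (-0.73), and *TAGLN*, transgelin, from 10.6 ± 0.347 to 7.11 ± 0.610 CPM (-0.58, adjusted p = 0.0245). The *TAGLN* call was held in 6 of the 13 settings on counts. Among the settings that lost it were those without CRE replicate 1 (adjusted p = 0.0657) or 2 (0.0680) and without CRE+VAF347 replicate 1 (0.0813), 2 (0.0521) or 3 (0.110). DESeq2's Wald test also lost it, with the largest adjusted p of the settings on counts (0.153). *ACTB*, beta-actin, had a log2 fold change of -0.40 (adjusted p = 0.00432), under the fold threshold, while *ACTA2* at 24.7 ± 1.43 and 24.6 ± 1.33 CPM gave -0.004. In the CCN family, 4 of 6 genes were tested and *CCN2* was the one called. *CCN5*, which lacks the C-terminal domain of its relatives, measured 3.00, 3.14 and 2.99 CPM in CRE and 2.58, 2.10 and 2.69 CPM in CRE+VAF347, with a log2 fold change of -0.31 (adjusted p = 0.458).

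**Figure D4:**
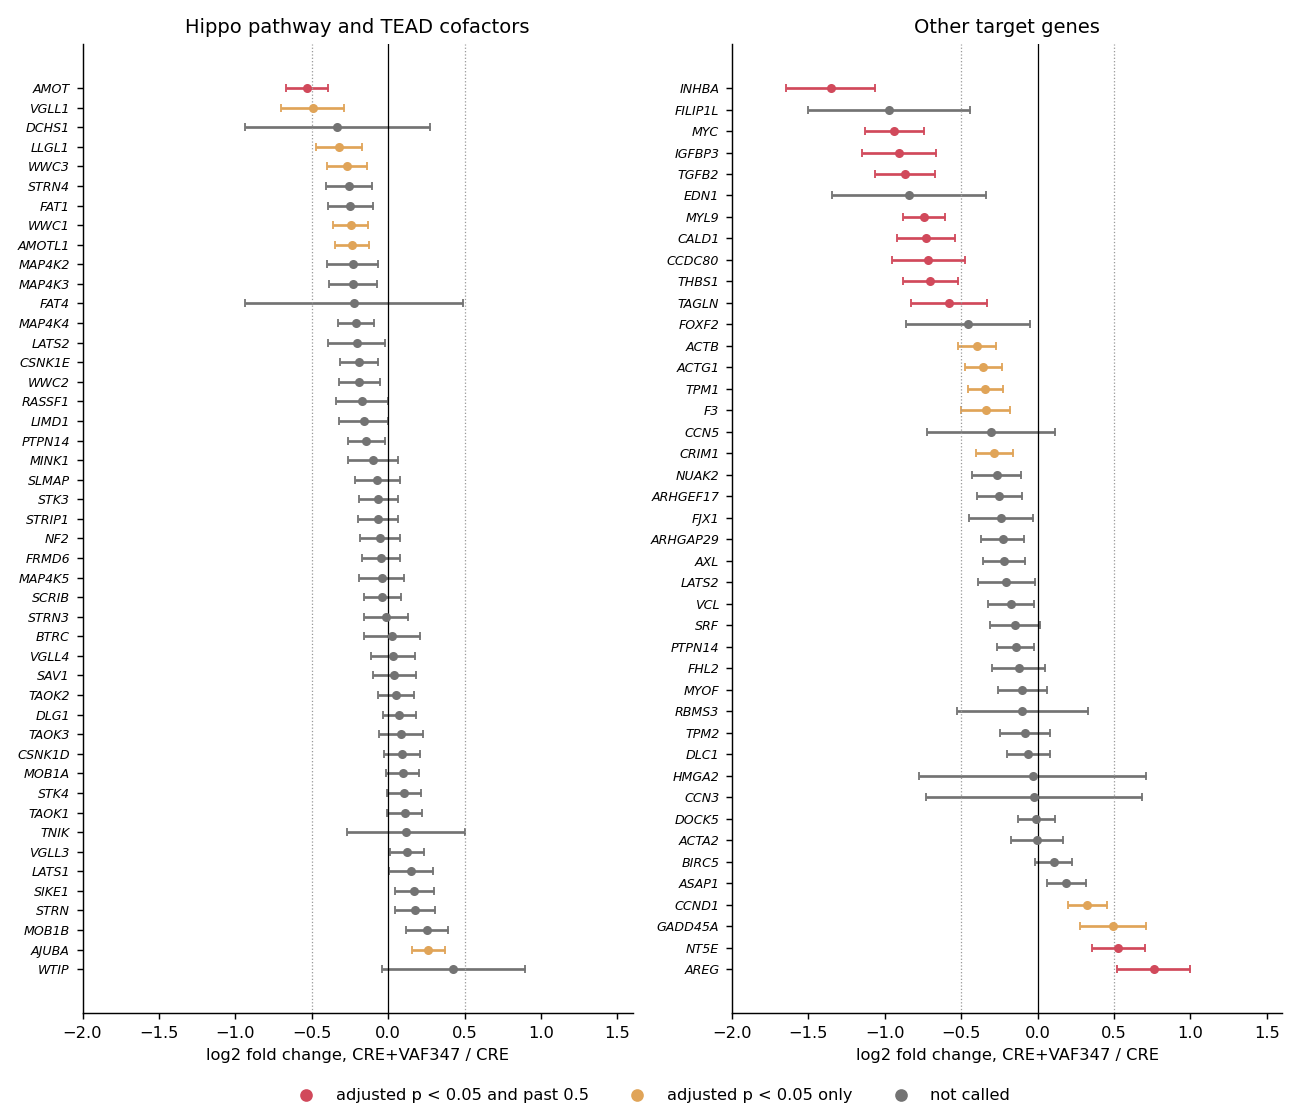
Log2 fold change (CRE+VAF347 over CRE) with 95% intervals for 46 Hippo pathway and TEAD cofactor genes (left) and 42 other target genes (right), with colour for the call and dotted lines at the fold threshold. On the left *AMOT* is the gene called, and on the right 9 genes are called lower and 2 higher. *LATS2* and *PTPN14* belong to both lists.

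Markers of other cell types were read in the same libraries. Of all genes, 2.21% were called, 1.71% were called lower, and 14.8% were lower in every VAF347 library. Of 3 tested fibroblast markers 1 was called, *VIM*, lower at 3.31 against 8.22 CPM, while *COL1A1* measured 37.6 ± 1.69 against 40.3 ± 4.44 CPM (SD, n = 3 each; log2 fold change -0.10, adjusted p = 0.572, edgeR). *DCN* and *LUM* were at 0, and the summed TPM of the 6 fibroblast markers was 25.2 to 27.6 in CRE and 16.4 to 22.1 in CRE+VAF347. Both tested endothelial markers, *CDH5* (9.86 against 17.6 CPM) and *VWF* (1.20 against 3.29 CPM), were called lower, *PECAM1* was under 1 CPM in every library, and the summed TPM of the 3 markers was 7.31 to 7.93 in CRE and 3.95 to 4.67 in CRE+VAF347. The *VWF* call was lost without CRE+VAF347 replicate 2 (adjusted p = 0.0633) or 3 (0.0595). The 3 immune markers summed to 21.2 to 24.6 TPM in CRE and 13.9 to 19.5 TPM in CRE+VAF347, with *PTPRC* and *CD3E* under 1 CPM in every library. The sum was nearly all *CD68*, the 1 tested, at 21.2, 24.3 and 24.2 TPM in CRE and 19.3, 19.2 and 13.8 TPM in CRE+VAF347. It was not called (log2 fold change -0.43, adjusted p = 0.0912, edgeR). Of 6 tested epithelial markers 0 were called, which is near the share of all genes. *KRT19* was lower in every VAF347 library (log2 fold change -0.38, adjusted p = 0.0265, edgeR), under the fold threshold. *CDH1* and *KRT5* were also lower in every VAF347 library, and *KRT18* was higher in every one. The part of the fibroblast, endothelial and immune marker transcripts in the decrease of *CCN2*, *AMOTL2* and the other targets was not tested.

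The genes whose profile over the 6 libraries lay closest to each target were listed by the root mean square difference of centred log2 CPM, among 10856 genes with a mean log2 CPM of 3 or more (10857 for *ANKRD1*). For *CCN2* they were *IKBKE* (0.0311), *IFIT1* (0.0428) and *INHBB* (0.0553), and for *AMOTL2* they were *GBP1* (0.0317), *PLK2* (0.0373) and *KLK10* (0.0411). All 6 were called lower, with log2 fold changes from -0.66 to -0.56, close to those of the genes they were matched to. The *GBP1* call was lost without CRE replicate 3 (-0.48) and that of *INHBB* without CRE+VAF347 replicate 3 (-0.50). Of 13 settings on counts, *IKBKE* was called in 12, *GBP1* in 12 and *INHBB* in 11, and *IKBKE* reached -0.48. For *CCN1* the closest were *SEH1L* (0.00935), *PPP1R3D* (0.0206) and *CDKN2AIPNL* (0.0210), and for *ANKRD1*, at its low level, they were *S1PR2* (0.0683), *TANGO6* (0.0800) and *CIITA* (0.0829), none of them called. The likeness is over 6 libraries of 2 groups and describes these libraries only.

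Annotated genes overlap 6 of the 10 members on the genome, and whether the counting used strand is not given. Most held few counts, the highest being 37.4 for an unnamed lncRNA opposite *YAP1*, against 2861 to 3202 counts for *YAP1* itself. *LINC01013*, opposite *CCN2*, held 0 to 2 counts, and the pseudogene *RPL39P5*, which overlaps *AMOTL2* on its own strand, held at most 1.03. The decrease of *AMOTL2* was called in 13 of 13 settings on counts, with log2 fold changes from -0.64 to -0.50, the smallest after an offset for the GC content of transcripts, which is 63.0% for *AMOTL2*. *CCN2* was called in 11 of 13 (51.5% GC). It missed the p threshold with offsets for transcript length (-0.64, adjusted p = 0.0521) and without CRE+VAF347 replicate 3 (-0.61, adjusted p = 0.0526). With limma on TPM 0 of the 10 genes were called, with 2 at an unadjusted p under 0.05, again without the share of all genes. In those 3 settings the log2 fold change of *AMOTL2* was -0.57 with an adjusted p of 0.0644 to 0.191, and that of *CCN2* was -0.67 to -0.61 with an adjusted p of 0.145 to 0.346.

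**Figure D5:**
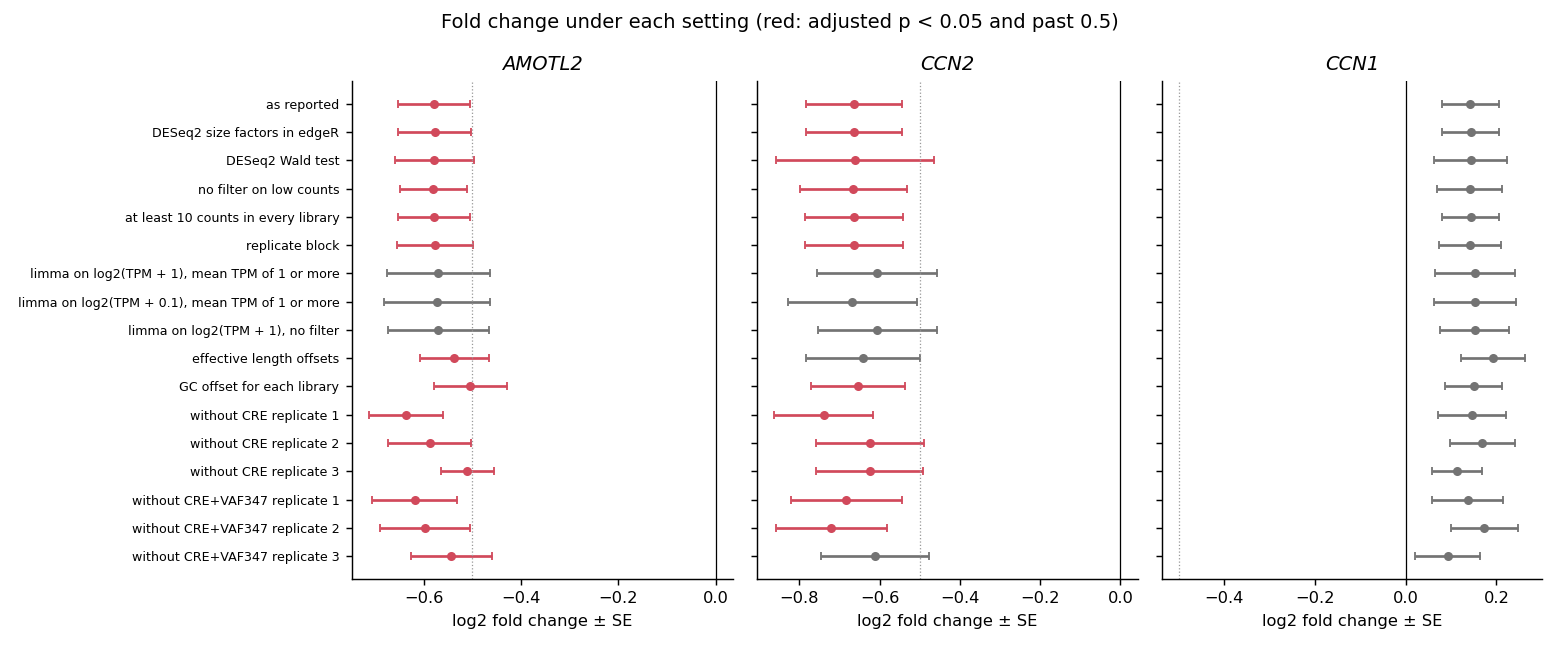
Log2 fold change ± SE of *AMOTL2*, *CCN2* and *CCN1* under each setting, with red for an adjusted p under 0.05 and a fold change past the threshold. Every setting puts *AMOTL2* and *CCN2* under 0 and *CCN1* over 0, and the 3 limma settings on TPM make none of these calls.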

How the data were processed

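RNA-seq was analysed for 6 HBEC libraries, 3 CRE and 3 CRE+VAF347, grouped by the sample labels, with 0 columns left unmatched. Poly(A)-enriched RNA was sequenced as read pairs. The authors made the deposited expected counts per gene symbol with Salmon on hg38 (version and annotation not given in the sources used here), not scaled to depth, together with the deposited TPM. A deposited table of the authors' own DESeq2 comparison (fold changes, p-values, mean counts) was not used. The expected counts, of which 31.5% of non-zero values were not whole (tolerance 0.001), were rounded. No pair of replicates agreed within sampling noise. The mean chi-square per gene between the counts of 2 libraries was 9.25 and 8.95 for CRE replicate 3 against CRE replicates 1 and 2. It was 1.79 to 2.58 for the other pairs within a group. The 61228 symbols were all found in GENCODE v44.

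Counts were fitted with edgeR 4.0.16 under R 4.3.3, by its quasi-likelihood test after filterByExpr and TMM, without covariates and with Benjamini-Hochberg adjustment over 15373 genes. A call needed an adjusted p under 0.05 and a log2 fold change beyond 0.5 in either direction. Intervals are ± 1.96 SE. Shares and ratios were compared by exact permutation over libraries in SciPy 1.17.1. Counting error alone puts the floor at 3 counts per library.

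The members and the gene lists were chosen with earlier results of these data known. The genes named are the members, listed genes past both thresholds, the AhR check genes and the 3 nearest profiles of each target. Those profiles were taken among genes with a mean log2 CPM of 3 or more. Where few of a list passed, some of the genes farthest from 0 were named as well. *FILIP1L* (log2 fold change -0.97, adjusted p = 0.0640, edgeR), *WTIP* (0.43, adjusted p = 0.343) and *VGLL3* (0.12, adjusted p = 0.249) were also among the farthest in their lists. They were not called in this fit and are not described. Genes named for other reasons (*ACTB*, *ACTA2*, *LATS2*, *AMOTL1*, *WWC1*, *WWC3*, *LLGL1* and the markers, for example) were chosen after their values were seen. Fits were tested on simulated data. A gene left out of the target list is not reported here. Alternatives were DESeq2 size factors, DESeq2 1.42.0, no filter, at least 10 counts, the replicate number as a block, limma 3.58.1 on log2(TPM + 1) and log2(TPM + 0.1) at a mean TPM of 1 or more, log2(TPM + 1) with no filter, transcript length offsets, no fold threshold, and each library left out. A GC offset was added after the data were seen. Promoter windows are from the RefSeq table of GRCh38.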

Additional observations from a re-analysis of the deposited data

How the results depend on the processing

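Of the 10 genes, 2 were called in the settings on counts, except with transcript length offsets and without CRE+VAF347 replicate 3 (1 in both), and 0 with the limma settings on TPM. The limma settings were log2(TPM + 1), log2(TPM + 0.1) and log2(TPM + 1) with no filter, and in this order they called 84 (50 lower), 84 (52 lower) and 32 (12 lower) genes in all, 0, 0 and 0 Hippo genes, and 4, 4 and 1 other targets. They gave *CCN2* -0.61, -0.67 and -0.61, *AMOTL2* -0.57 in each, *YAP1* -0.0947, -0.0954 and -0.0947, *S1PR2* -0.0181, -0.0180 and -0.0181, and *CIITA* 0.17, 0.21 and 0.17. Their signs for *YAP1*, *S1PR2* and *CIITA* were opposite to those reported, and some settings on counts below gave the same opposite signs. Transcript length offsets called 223 genes and 1 member (*AMOTL2*), and gave *CCN2* -0.64, *YAP1* -0.0587 and *CIITA* 0.25, with 8 other targets. No filter on low counts called 598 genes (411 lower and 187 higher, out of 28533 tested), against 340 (263 and 77). Without the fold threshold, 833 genes, 7 Hippo genes and 18 other targets passed. The GC offset called 2 Hippo genes, *VGLL1* being the second. Whether the same numbers in the labels pair the libraries is not settled by these values. The correlations of deviations were 0.0529, 0.0327 and 0.0154, none over 0.1, although each library correlated best with its own number. A replicate block gave 319 genes, 2 members, 1 Hippo gene and 11 other targets.

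Leaving out each library in turn gave 201 to 380 genes, 1 to 2 members, 0 to 2 Hippo genes and 9 to 11 other targets, the lowest of the first 3 without CRE+VAF347 replicate 3. *CCN2* then ran from -0.74 to -0.61 and *AMOTL2* from -0.64 to -0.51. Genes near 0 changed sign: *YAP1* ran from -0.00549 to 0.0419, *WWTR1* from -0.0950 to 0.0641, *TEAD1* from -0.0639 to 0.0297, *ANKRD1* from -0.27 to 0.0894, *S1PR2* from -0.19 to 0.20 and *CIITA* from -0.26 to 0.0407. *ANKRD1*, at 8 to 14 counts a library, is limited by depth. The cause of these differences between settings was not tested.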
